A study of Mus musculus with 6 samples.

Results

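The 45 genes described here encode proteins that find and repair damaged DNA. They were taken by symbol from the deposited table of 21851 named genes, and all 45 were present there and passed the filter for testing. Wild-type mice gave the bone marrow, from which the cells were sorted as LT-HSCs, the rare long-term stem cells that sustain blood formation (lineage markers absent, c-Kit and Sca1 present, CD34 and CD135 absent). One group of mice ate the control diet (CD) and the other the high cholesterol diet (HCD), each for 3 months, with 3 libraries per diet. The labels state neither the strain, sex and age of the mice nor whether a library is 1 mouse or a pool. The p-values therefore cover the spread among the 6 libraries, and that spread may be technical.

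A double-strand break is recognised by the complex of MRE11, RAD50 and NBN and by the kinase ATM, while the kinase ATR responds to single-stranded DNA at stalled replication forks. The break is then either joined end to end, with the Ku proteins and DNA ligase IV, or copied from the sister chromatid by homologous recombination, which needs BRCA1, BRCA2 and their partners. The Fanconi anaemia proteins repair crosslinks between DNA strands, and mismatch repair corrects copying errors. In blood formation these genes are known for inherited bone marrow failure, as in Fanconi anaemia. Many are transcribed most in S phase, whereas stem cells at rest rely on end joining.

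The low values, which move in steps of 1 read, put each library at an estimated 19160000 to 20340000 reads or fragments. The gate takes cells without CD34 and CD135 on the surface, yet the transcripts Cd34 (464 FPKM on average, above 98.9% of tested genes) and Flt3, which encodes CD135 (109 FPKM), were abundant in all 6 libraries. Of 7 listed markers, those of the gate and Slamf1, Cd48 and Procr, which the gate as described does not include, 1 passed. It was Slamf1, which encodes the stem cell marker CD150. Slamf1 was higher under HCD (1.79 ± 0.47 FPKM under CD and 3.41 ± 0.27 under HCD, SD, n = 3, limma adjusted p = 0.0118). The other means under CD and HCD were 471 and 458 FPKM for Cd34, 114 and 104 for Flt3, 122 and 118 for Kit, 66.7 and 61.6 for Ly6a (SCA1), 67.9 and 72.5 for Cd48 and 19.9 and 22.2 for Procr. Over the 6 libraries Cd48 lay above 91.4% of tested genes and Slamf1 above 11%. Of G2 and M phase genes, Mki67 averaged 65.3 FPKM, above 90.4% of tested genes, and Cenpf 9.33 FPKM, above 39.9%. Whether the sorted cells were at rest was not tested. HCD replicate 2 stood apart from the other HCD libraries, at -14.66 on the second principal component against 7.81 and 10.11. This library also had lower values for longer transcripts, and the counts for the 45 repair genes are therefore given with and without it. Other lists, and named genes outside the 45, are given with it only.

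Under HCD, 10 of the 45 repair genes were lower and 0 were higher. Over all 10676 genes tested, 13.9% passed the threshold, 7.66% lower and 6.28% higher (limma, adjusted p under 0.05). The lower genes were the checkpoint kinase genes Chek1 and Atm, the break-end genes Rad50, Nbn and Exo1, and the end-joining genes Lig4 and Xrcc5. Brca1, the mismatch gene Msh6 and the strand-break sensor gene Parp1 completed them. Lig4 reached the filter of 1 FPKM in the CD libraries alone, so it could enter the test only with higher CD values. On the scale of log2(FPKM + 1) the 10 genes fell 1.13-fold to 1.42-fold, and this scale makes changes of low genes look smaller. The median difference of the 45 genes was -0.18 (log2, HCD minus CD), beside -0.03 for all genes tested, and 40 of the 45 differences were negative (57.9% of all genes tested). In bulk RNA, fewer cells that express a gene and less of its RNA per cell cannot be told apart.

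In 24 of the 45 genes every HCD library lay below every CD library, and in 0 of them every HCD library lay above. Over all genes tested the groups were apart in 37.7%, with HCD lower in 22.7% and higher in 15%. An unadjusted p under 0.05 with HCD lower was reached by 23 of the 45 and by 18.3% of all genes tested. The lowest of the 6 values was in HCD replicate 2 for 28 repair genes, beside 33.6% of all genes tested. The median difference from the CD mean was -0.14 in HCD replicate 1, -0.28 in replicate 2 and -0.15 in replicate 3. Without HCD replicate 2, 14 of the 45 genes were lower and 0 higher, beside 14.2% lower and 11% higher over all genes tested. Without CD replicate 1, 2 or 3 the count was 1 of 44 (Chek1), beside 1.67%, 2.27% and 2.07% of all genes tested. It was 2 without HCD replicate 1 (Atm and Chek1), beside 3.27%, and 5 without HCD replicate 3 (Atm, Chek1, Nbn, Prkdc and Msh6), beside 5.54%.

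**Figure D1:**
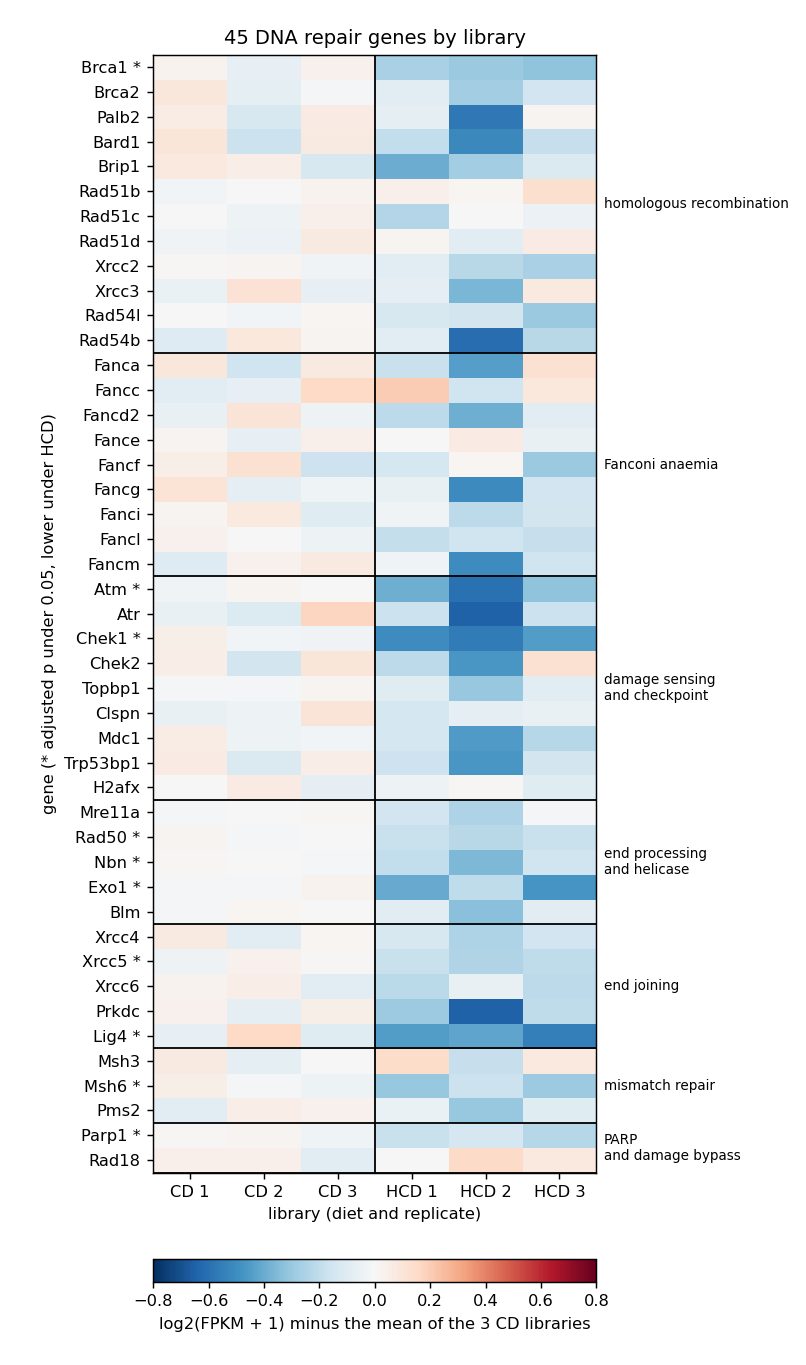
Each cell is log2(FPKM + 1) of 1 gene in 1 library minus the mean of the 3 CD libraries, with genes in rows by role and libraries in columns. Blue cells fill most of the 3 HCD columns, and the HCD replicate 2 column is the darkest for many genes, with 28 of 45 lowest values.

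Longer transcripts were lower under HCD, and the repair genes are long. The longest annotated transcript had a median of 3946 bases for the 45 genes and 3071.5 for the tested genes, and 31 of the 45 lay above that second value. Across genes, which are not independent replicates, length and the difference between diets had a Spearman rho of -0.26 over 10354 tested genes and -0.50 over the 45. Without HCD replicate 2 these values were -0.16 and -0.34. With each library's trend against length removed, 5 of the 45 genes were lower and 0 higher, beside 5.51% lower and 7.4% higher over all genes tested. These 5 were Atm, Chek1, Nbn, Xrcc5 and Lig4. The median of the 45 was then -0.15 against -0.003 for all genes tested. With the trend removed and HCD replicate 2 left out as well, an alternative chosen after seeing the data, all 10 genes were lower again, with Xrcc6 added, beside 11.7% of all genes tested.

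**Figure D2:**
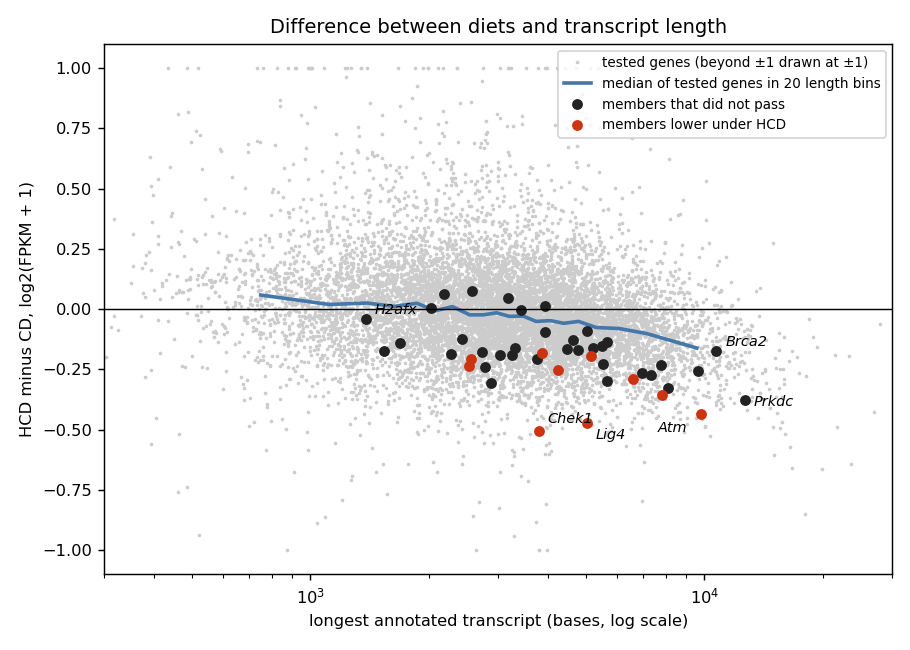
The difference between diets (HCD minus CD, log2(FPKM + 1)) is plotted against the longest annotated transcript in bases on a log scale, for all tested genes (grey) and for the repair genes that passed (red) or did not (black). The blue line, the median of tested genes in bins of length, declines to the right, and Chek1 at -0.50 and Lig4 at -0.47 lie far below it, while Brca2, the second longest of the labelled genes, lies close to it.

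Sequences before the start sites were read because many repair genes belong to the S phase programme. RefSeq (GRCm38.p6) gave a window for 36 of the 45 genes, from which the 250 bases before the start site were read. The search took, on both strands, 4 words bound by E2F factors, which drive S phase genes (TTTGGCGC, TTTCCCGC, TTTGCCGC and TTTCGCGC, counted as 1 motif), the CCAAT box (CCAAT), and the CHR element of mitotic genes (TTTGAA). An E2F word was in 8 of the 36 windows (22.2%), against 3.69% of 8309 tested genes and 8 of 22 DNA replication genes (36.4%). A CCAAT word was in 19 of 36 (52.8%), against 37.1% of tested genes, and a CHR word in 1 of 36 (2.78%), against 10.1%. Of the 7 lower genes with a window 0 held an E2F word and 4 held CCAAT. Of the 29 genes with a window that did not pass, 8 held an E2F word and the rest held none. The windows of 4 lower genes are shown first, and those of Brca2 and Mdc1 after them, chosen from these 8 to show what a match looks like. Capitals mark an E2F word or a CCAAT word on either strand, and each sequence is on the gene's strand, 5′ to 3′.
Chek1, chr9:36726659-36726908, minus strand: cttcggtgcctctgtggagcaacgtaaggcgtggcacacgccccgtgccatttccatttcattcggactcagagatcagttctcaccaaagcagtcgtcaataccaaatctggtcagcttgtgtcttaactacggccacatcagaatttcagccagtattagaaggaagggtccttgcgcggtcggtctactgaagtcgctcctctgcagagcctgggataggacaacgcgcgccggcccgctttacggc
Atm, chr9:53536672-53536921, minus strand: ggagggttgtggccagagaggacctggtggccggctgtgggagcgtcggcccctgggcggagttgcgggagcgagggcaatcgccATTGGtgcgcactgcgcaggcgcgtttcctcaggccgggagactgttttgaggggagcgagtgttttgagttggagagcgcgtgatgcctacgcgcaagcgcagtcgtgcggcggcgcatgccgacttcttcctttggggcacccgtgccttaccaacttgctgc
Brca1, chr11:101551956-101552205, minus strand: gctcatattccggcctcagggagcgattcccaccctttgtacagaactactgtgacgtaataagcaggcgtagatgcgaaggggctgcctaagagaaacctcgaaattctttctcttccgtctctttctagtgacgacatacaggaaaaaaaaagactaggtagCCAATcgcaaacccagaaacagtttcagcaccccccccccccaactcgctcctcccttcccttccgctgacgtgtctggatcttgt
Msh6, chr17:87974800-87975049, plus strand: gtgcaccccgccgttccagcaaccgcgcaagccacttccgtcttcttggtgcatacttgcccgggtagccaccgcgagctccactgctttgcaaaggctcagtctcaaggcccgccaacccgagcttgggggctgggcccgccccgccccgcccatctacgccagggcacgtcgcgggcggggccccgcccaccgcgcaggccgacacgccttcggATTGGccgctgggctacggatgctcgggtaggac
Brca2, chr5:150522371-150522620, plus strand: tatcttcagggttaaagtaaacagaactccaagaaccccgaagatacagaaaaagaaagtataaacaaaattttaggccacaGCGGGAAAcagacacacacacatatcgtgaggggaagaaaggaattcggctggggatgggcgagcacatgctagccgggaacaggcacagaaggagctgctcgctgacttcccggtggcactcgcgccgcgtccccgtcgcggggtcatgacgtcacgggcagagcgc
Mdc1, chr17:35841248-35841497, plus strand: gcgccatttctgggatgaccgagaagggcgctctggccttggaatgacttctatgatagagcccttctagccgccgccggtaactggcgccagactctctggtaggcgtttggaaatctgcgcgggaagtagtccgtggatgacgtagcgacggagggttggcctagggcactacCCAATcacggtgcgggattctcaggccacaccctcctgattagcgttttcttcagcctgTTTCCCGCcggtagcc
In these windows Chek1 has no capitals, Atm, Brca1 and Msh6 have a CCAAT word, Brca2 has an E2F word, and Mdc1 has both. The RefSeq start site of Chek1 lies 407 bases downstream of the GENCODE start site, so its whole window lies inside the GENCODE gene. For the other 5 the start sites of RefSeq and GENCODE are at most 69 bases apart. Among genes whose windows are not shown the start sites can lie far apart. The distance is 65533 bases for Fancc and 28534 for Xrcc6, whose window holds an E2F word. A match describes these letters only.

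Among the 9 genes of damage sensing and the checkpoint, 2 were lower and 0 higher (7.66% of all genes tested were lower), and all 9 differences were negative with a median of -0.26. Chek1 encodes the kinase that ATR activates to hold the cell cycle while forks are stalled (chromosome 9, 36708482 to 36727065, GRCm38). It had 18.8, 17.9 and 17.7 FPKM in CD replicates 1 to 3 and 12.5, 12.0 and 13.01 FPKM in the HCD libraries. All HCD values lay more than 4 FPKM below all CD values. The log2 difference was -0.50 ± 0.059 (SE, n = 3 and 3; limma adjusted p = 0.00176), and Chek1 ranked 101 by p among all genes tested. Chek1 passed under all 16 alternatives, with an adjusted p of 0.000472 to 0.0164 when 1 library was left out.

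Atm encodes the kinase that signals double-strand breaks (chromosome 9, 53439149 to 53536740). Atm had 12.1, 12.5 and 12.4 FPKM under CD and 9.17, 7.79 and 9.67 FPKM under HCD, without overlap, and HCD replicate 2 was the lowest. The log2 difference was -0.43 ± 0.082 (limma adjusted p = 0.0118). It was -0.28 (limma adjusted p = 0.0187) with the length trend removed, since the longest Atm transcript has 9819 bases. Leaving out any one of the CD libraries ended the call, at an adjusted p of up to 0.0562.

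The partner kinases did not pass. Atr, the kinase of stalled forks, had 9.14, 8.77 and 10.9 FPKM under CD and 8.39, 5.76 and 8.38 under HCD, a log2 difference of -0.33 ± 0.14 (limma adjusted p = 0.145). Its groups did not overlap, and HCD replicate 2 lay furthest from the rest. Chek2, the kinase downstream of ATM, overlapped, with 13.7, 11.8 and 14.1 FPKM under CD and 11.3, 9.24 and 14.4 under HCD (limma adjusted p = 0.398). The differences between Chek1 and Chek2, or between Atm and Atr, were not tested.

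The mediators that gather at breaks lay on the same side. Mdc1, which binds phosphorylated H2AX, had 22.5, 21.0 and 21.3 FPKM under CD and 19.5, 15.5 and 18.3 under HCD (log2 difference -0.27 ± 0.082, limma adjusted p = 0.0588). Trp53bp1, which encodes 53BP1 and favours end joining, had a log2 difference of -0.26 ± 0.097 (limma adjusted p = 0.111), and Topbp1, the activator of ATR, -0.16 ± 0.063 (limma adjusted p = 0.125). The groups did not overlap for any of these. With the replicate number as a block, Mdc1 (limma adjusted p = 0.024), Trp53bp1 (0.0306) and Atr (0.0415) passed, and without HCD replicate 2 Mdc1 passed (0.0372), as it did with quantile normalization (0.0489). With the block and the length trend removed none of the 3 passed, and the differences were -0.16 for Mdc1 (limma adjusted p = 0.0879), -0.11 for Trp53bp1 (0.238) and -0.21 for Atr (0.128). Clspn, which encodes the CHK1 adaptor claspin, overlapped, with a log2 difference of -0.09 ± 0.068.

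H2afx encodes the histone variant H2AX, whose phosphorylation marks breaks. It was the most abundant of the 45 genes, with 157, 163 and 149 FPKM under CD and 152, 157 and 146 FPKM under HCD. The groups overlapped. The log2 difference was -0.04 ± 0.051 (limma adjusted p = 0.611).

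**Figure D3:**
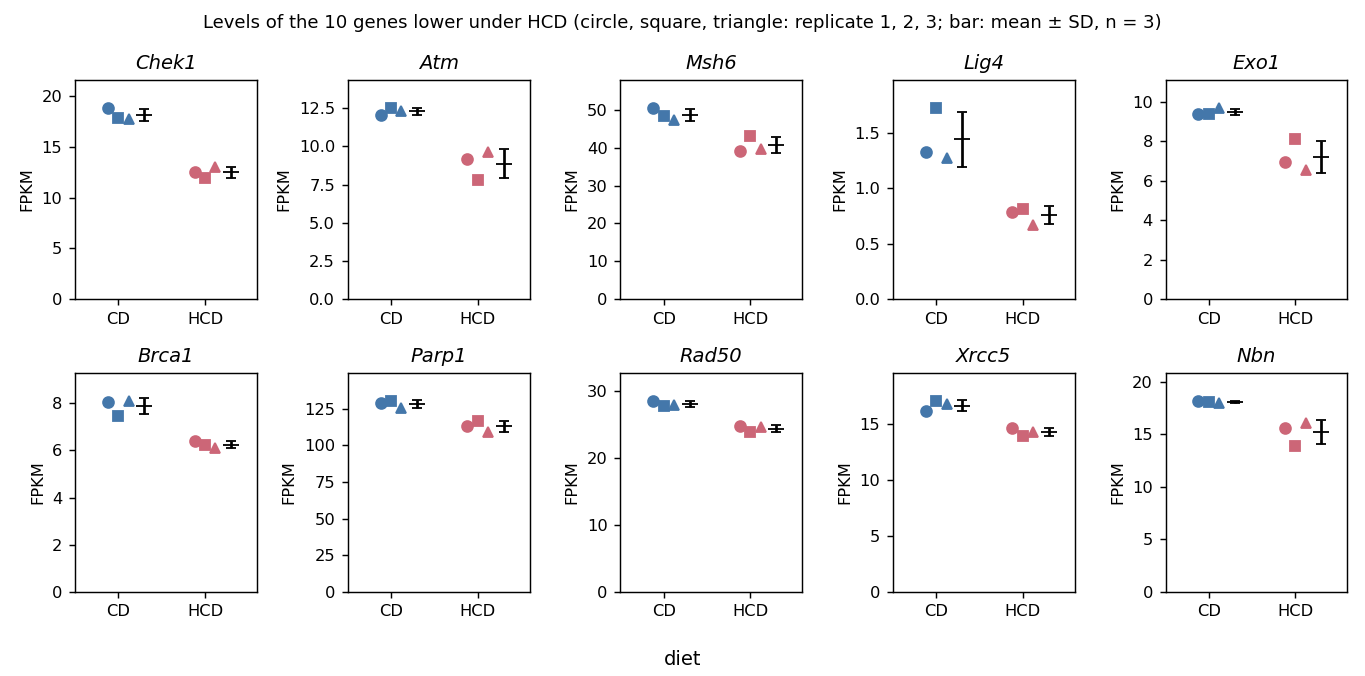
FPKM of the 10 genes lower under HCD, by diet, with 1 marker per replicate and the mean ± SD (n = 3) beside them; each vertical axis starts at 0. The groups are apart in all 10 genes, and Chek1 has the smallest p, with CD values of 17.7 to 18.8 FPKM and HCD values of 12.0 to 13.01 FPKM.

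All 5 genes that process break ends had every HCD value below every CD value (22.7% of all genes tested), and 3 of the 5 were lower at the threshold (7.66% of all genes tested). Rad50, the coiled-coil tether of the break-sensing complex, had 28.5, 27.8 and 28.0 FPKM under CD and 24.8, 23.9 and 24.7 under HCD. The values were tight within each diet, and the log2 difference was -0.19 ± 0.047 (limma adjusted p = 0.029). Nbn, whose product recruits ATM to that complex, had 18.1, 18.0 and 17.9 FPKM under CD and 15.6, 13.9 and 16.0 under HCD (log2 difference -0.24 ± 0.065, limma adjusted p = 0.0458). Mre11a, the nuclease of the complex, did not pass, at 16.1, 16.3 and 16.4 FPKM under CD and 14.5, 13.6 and 16.1 under HCD (limma adjusted p = 0.207). HCD replicate 3 lay just under the lowest CD value of Mre11a.

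Exo1, which encodes the exonuclease that widens resected ends, had 9.38, 9.41 and 9.67 FPKM under CD and 6.95, 8.12 and 6.55 under HCD. Within HCD it was highest in replicate 2. The log2 difference was -0.36 ± 0.083 (limma adjusted p = 0.0254). Blm, the Bloom syndrome helicase gene, did not pass (log2 difference -0.17 ± 0.082, limma adjusted p = 0.191). Nbn did not pass with no filter (limma adjusted p = 0.0731), with TMM factors (0.0512) or without trend and robust (0.0587), and Exo1 did not with quantile normalization (0.0651). With the length trend removed, Rad50 (limma adjusted p = 0.112) and Exo1 (limma adjusted p = 0.164) did not pass. Leaving out 1 library took the adjusted p of Rad50 up to 0.121, of Nbn up to 0.146 and of Exo1 up to 0.102. Without any one of the CD libraries, or without HCD replicate 1, all 3 calls ended, and without HCD replicate 3 those of Rad50 and Exo1.

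Of the 5 end-joining genes 2 were lower and 0 higher (7.66% of all genes tested were lower), and their median difference was even across the HCD libraries, at -0.22, -0.24 and -0.20. Lig4, the ligase of this pathway, was the least abundant of the 45 genes, with 1.33, 1.72 and 1.28 FPKM under CD and 0.79, 0.82 and 0.67 under HCD. An estimated 65 to 166 reads per library lie behind these values. Lig4 reached the filter of 1 FPKM in the CD libraries alone, so it could enter the test only with higher CD values. Its log2 difference was -0.47 ± 0.11 (limma adjusted p = 0.0236), and the mean FPKM under CD was 1.90 times that under HCD.

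Xrcc5 encodes Ku80, which with Ku70 caps broken ends. It had 16.1, 17.0 and 16.8 FPKM under CD and 14.6, 13.9 and 14.3 under HCD (log2 difference -0.21 ± 0.055, limma adjusted p = 0.0398). The groups were apart by more than their spread, but with the replicate number as a block Xrcc5 did not pass (limma adjusted p = 0.0551), nor with quantile normalization (0.0593) or TMM factors (0.0579). Xrcc6, the Ku70 gene, had 55.2, 56.1 and 51.0 FPKM under CD and 46.3, 51.9 and 46.6 under HCD, with HCD replicate 2 among the CD values (limma adjusted p = 0.109). Without HCD replicate 2 it passed (limma adjusted p = 0.0107).

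Prkdc encodes the DNA-dependent protein kinase catalytic subunit and has the longest transcript of the 45 (12647 bases). It had 6.86, 6.26 and 6.93 FPKM under CD and 5.27, 3.91 and 5.68 under HCD, a log2 difference of -0.38 ± 0.12 (limma adjusted p = 0.0657). It passed with the replicate block (limma adjusted p = 0.0239), with quantile normalization (0.0444) and without HCD replicate 2 (0.0443) or HCD replicate 3. It did not with the length trend removed (limma adjusted p = 0.159), nor with the block and the length trend removed (0.131). Xrcc4, the scaffold of the ligase, had a log2 difference of -0.17 ± 0.073 (limma adjusted p = 0.146). The call of Xrcc5 ended without any one library other than HCD replicate 2 (adjusted p up to 0.143). Lig4 was not tested once a CD library was left out, did not pass without HCD replicate 1 or 3 (adjusted p up to 0.0677), and did without HCD replicate 2.

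**Figure D4:**
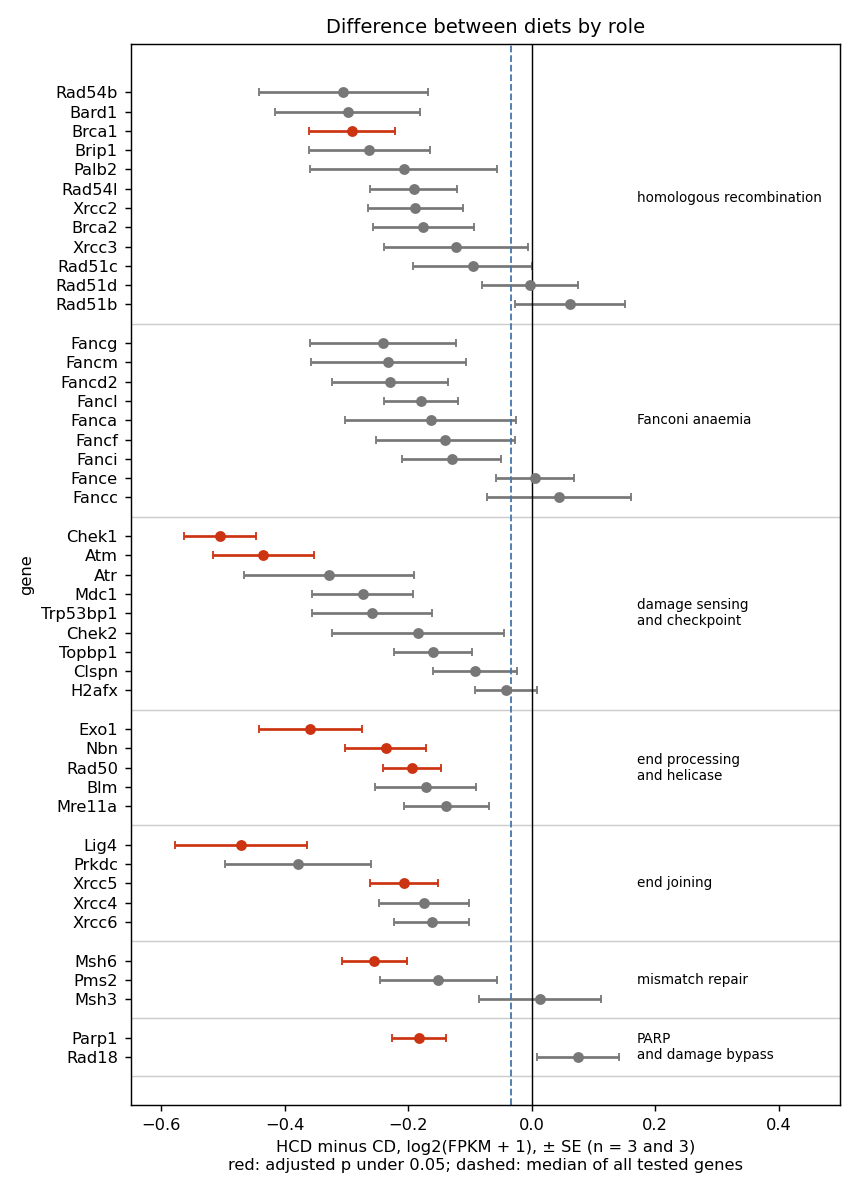
HCD minus CD difference of each repair gene on the log2(FPKM + 1) scale with its standard error (n = 3 and 3), grouped by role; red points passed the threshold and the dashed line is the median of all tested genes. Nearly all points lie left of the dashed line, from -0.50 for Chek1 to 0.07 for Rad18.

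Of the 12 homologous recombination genes 1 was lower and 0 higher (7.66% of all genes tested were lower). Brca1, which starts resection and brings in BRCA2, had 8.03, 7.47 and 8.09 FPKM under CD and 6.40, 6.23 and 6.10 under HCD. The groups were more than 1 FPKM apart, with a log2 difference of -0.29 ± 0.069 (limma adjusted p = 0.027). Bard1, whose product pairs with BRCA1 in a ubiquitin ligase, had 6.04, 4.84 and 5.90 FPKM under CD and 4.74, 3.59 and 4.79 under HCD. Its log2 difference was -0.30 ± 0.12 (limma adjusted p = 0.127), as large as that of Brca1 with a wider spread, and it passed with the replicate block (limma adjusted p = 0.0379) but not with the block and the length trend removed (0.0861).

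Brca2, which loads the recombinase onto DNA, had 8.11, 7.12 and 7.48 FPKM under CD and 7.04, 6.05 and 6.69 under HCD, without overlap (log2 difference -0.18 ± 0.081, limma adjusted p = 0.182). With the length trend removed its difference was -0.01. Palb2, the link between BRCA1 and BRCA2, overlapped and was low in HCD replicate 2 (2.94 FPKM, against 4.37 to 5.12 in the other 5 libraries). The helicase gene Brip1 had a log2 difference of -0.26 ± 0.098 (limma adjusted p = 0.108), and the chromatin remodeller Rad54l -0.19 ± 0.07 (limma adjusted p = 0.103). Rad54b had -0.31 ± 0.14 (limma adjusted p = 0.17), with 2.02 FPKM in HCD replicate 2 against 2.94 to 3.88 elsewhere.

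The paralogues that assist the recombinase differed little between diets. Rad51b had 1.26 to 1.35 FPKM under CD and 1.33 to 1.52 under HCD, and Rad51c had 1.90 to 2.06 FPKM under CD and 1.53 to 1.96 under HCD. Rad51d had 6.30 to 6.94 FPKM under CD and 6.08 to 6.89 under HCD, with a log2 difference of -0.003 ± 0.077. Xrcc3 overlapped too (log2 difference -0.12 ± 0.12), whereas the 3 HCD values of Xrcc2, 4.71 to 5.41 FPKM, lay below the 3 CD values, 5.68 to 5.92 FPKM (limma adjusted p = 0.137). The Brca1 call ended without any one library other than HCD replicate 2 (adjusted p up to 0.112), and with the length trend removed (limma adjusted p = 0.103).

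None of the 9 Fanconi anaemia genes passed (0 lower, 0 higher by limma), beside 7.66% lower over all genes tested. An unadjusted p under 0.05 with HCD lower was reached by 2 of the 9, a share near the 18.3% of all genes tested. Those 2 were Fancl, the ubiquitin ligase of the core complex, and Fancd2, which that ligase modifies. Fancl had 11.0, 10.7 and 10.4 FPKM under CD and 9.24, 9.48 and 9.30 under HCD, without overlap (log2 difference -0.18 ± 0.06, limma adjusted p = 0.0822). It passed without HCD replicate 2 (limma adjusted p = 0.0473). Fancd2 had 7.57, 8.58 and 7.68 FPKM under CD and 6.71, 5.83 and 7.40 under HCD (limma adjusted p = 0.137).

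Fanci, the partner of FANCD2, overlapped, with a log2 difference of -0.13 ± 0.08. The core complex genes Fanca (log2 difference -0.16 ± 0.14), Fancf (-0.14 ± 0.11) and Fancg (-0.24 ± 0.12) overlapped as well, as did the translocase gene Fancm (-0.23 ± 0.13). Fanca was at 5.93 FPKM in HCD replicate 2 and at 9.23 in HCD replicate 3, the lowest and highest of its 6 values. Fance (0.01 ± 0.064) and Fancc (0.04 ± 0.12) had differences close to 0.

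Of the 3 mismatch repair genes, Msh6, which recognises single mispairs, was lower. It had 50.5, 48.4 and 47.4 FPKM under CD and 39.2, 43.2 and 39.7 under HCD (log2 difference -0.25 ± 0.053, limma adjusted p = 0.0174). The HCD values were all more than 4 FPKM below the CD values. Msh3, which recognises loops, overlapped, with 6.90 to 7.76 FPKM under CD and 6.32 to 8.21 under HCD (log2 difference 0.01 ± 0.099). The endonuclease gene Pms2 did not pass either (-0.15 ± 0.095, limma adjusted p = 0.313). Parp1, the sensor of strand breaks and the second most abundant of the 45 genes, had 129, 130 and 125 FPKM under CD and 113, 117 and 109 under HCD. Its log2 difference was -0.18 ± 0.044 (limma adjusted p = 0.028), and Parp1 did not pass with TMM factors (limma adjusted p = 0.0767) or without trend and robust (0.0679).

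Rad18, the ubiquitin ligase that opens the bypass of damaged template, was 1 of the 5 genes with a positive difference. It had 15.6, 15.6 and 14.2 FPKM under CD and 15.1, 16.9 and 16.0 under HCD (0.07 ± 0.066, limma adjusted p = 0.475). The groups overlapped. Msh6 (limma adjusted p = 0.0591) and Parp1 (limma adjusted p = 0.0934) did not pass with the length trend removed. Without any one of the CD libraries or HCD replicate 1 neither passed (adjusted p up to 0.0842 for Msh6 and 0.117 for Parp1), and Parp1 did not without HCD replicate 3.

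The 6 lists of other repair genes, 97 tested of 99, had 10 genes lower (10.3%) and 1 higher, with a median difference of -0.09, beside 7.66% lower and -0.03 over all genes tested. In base excision repair 4 of 19 tested genes were lower and 0 higher. They were the uracil glycosylase gene Ung (24.3 ± 0.85 FPKM under CD, SD, n = 3, against 18.5 ± 2.44 under HCD), the gap-filling polymerase gene Polb (14.1 ± 1.13 against 11.0 ± 0.62), the flap nuclease gene Fen1 and the ligase gene Lig1. In nucleotide excision repair 1 of 20 was lower, the TFIIH subunit gene Gtf2h2 (16.7 ± 0.47 against 13.6 ± 0.57 FPKM). In that list 1 was higher, the damage-binding Xpa (14.4 ± 0.79 against 17.5 ± 0.44 FPKM; limma adjusted p = 0.0248). Among 25 further recombination and Fanconi genes Rpa1, which coats single strands, and Rmi2 were lower. The groups did not overlap in any of these 8 genes.

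Around the ATR checkpoint, 2 of 13 listed clamp and adaptor genes were lower and 0 higher, beside 7.66% lower and 6.28% higher over all genes tested. Rad9a, a subunit of the checkpoint clamp that helps activate ATR, went from 17.7 ± 0.52 to 12.8 ± 0.44 FPKM (limma adjusted p = 0.00266), and Wee1, the kinase that restrains entry into mitosis, from 28.4 ± 0.65 to 22.3 ± 0.99 (limma adjusted p = 0.00633). Both had tight values within each diet and transcripts of 2081 and 3419 bases. In translesion synthesis 1 of 10 was lower, Rev3l, the catalytic subunit of polymerase zeta, a share near the 7.66% of all genes tested. Of 10 tested further end-joining genes 0 passed in either direction (limma). In 6 of the 10 the unadjusted p was under 0.05 with HCD lower, beside 18.3% of all genes tested.

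Genes of the cell cycle and of another cell stage also differed between diets. Of 28 DNA replication genes 10 were lower and 0 higher, beside 7.66% lower and 6.28% higher over all genes tested, and their summed level was 1875 to 1882 FPKM under CD and 1656 to 1699 under HCD. Pole, the leading-strand polymerase gene, went from 22.4 ± 0.79 to 17.4 ± 0.72 FPKM (limma adjusted p = 0.0075). Of 20 genes of G2 and M phase 5 were lower and 0 higher. Among the lower ones was the proliferation marker Mki67 (71.9 ± 1.46 against 58.8 ± 2.08 FPKM, limma adjusted p = 0.00633). The G2 and M phase list was mixed, with a median difference of -0.08. In 10 of the 20 every HCD value lay below every CD value and in 4 above, beside 22.7% and 15% of all genes tested. All 7 markers of granulocyte and monocyte progenitors were higher, with a summed level of 885 to 913 FPKM under CD and 1659 to 1825 under HCD, and 0 of them at 0. Among 6 macrophage markers, 4 of them tested, the complement genes C1qa (1.85 ± 0.21 FPKM under CD, 0.55 ± 0.22 under HCD; limma adjusted p = 0.00373) and C1qb (2.30 ± 0.33, 0.82 ± 0.14; 0.00274) were lower and Cd68 (13.9 ± 0.44, 16.6 ± 1.06; 0.039) was higher. C1qa and C1qb reached the filter of 1 FPKM in the CD libraries alone, so they could enter the test only with higher CD values. The summed level of the 6 macrophage markers was 20.4 to 21.8 FPKM under CD and 17.6 to 20.6 under HCD. Of 6 T and NK cell markers the 2 tested were higher, Nkg7 (104 ± 2.76, 136 ± 11.4; limma adjusted p = 0.00739) and Klrb1c (0.63 ± 0.26, 1.26 ± 0.04; 0.0391), and Cd3e was listed at 0 in all 6 libraries. Klrb1c reached the filter in the HCD libraries alone, so it could enter the test only with higher HCD values. The summed level of the 6 T and NK cell markers was 103 to 108 FPKM under CD and 127 to 150 under HCD. Nkg7 made up nearly all of this sum, and Cd3d, Cd3g and Cd8a were at 0.17 FPKM or less in every library. Of 6 stroma and endothelium markers 1 was tested, Pecam1, and it was higher. The others were under the filter, among them Cdh5 (0.05 FPKM under CD and 0.04 under HCD), Kdr (0.29 and 0.24) and Cxcl12 (0.52 and 0.79). Of 4 tested erythroid markers Hbb-bt was lower, while 0 of 2 tested B cell markers passed in either direction (limma, 0 with an unadjusted p under 0.05). The part of cell cycle and of cell makeup in the differences of the 45 genes was not tested.

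**Figure D5:**
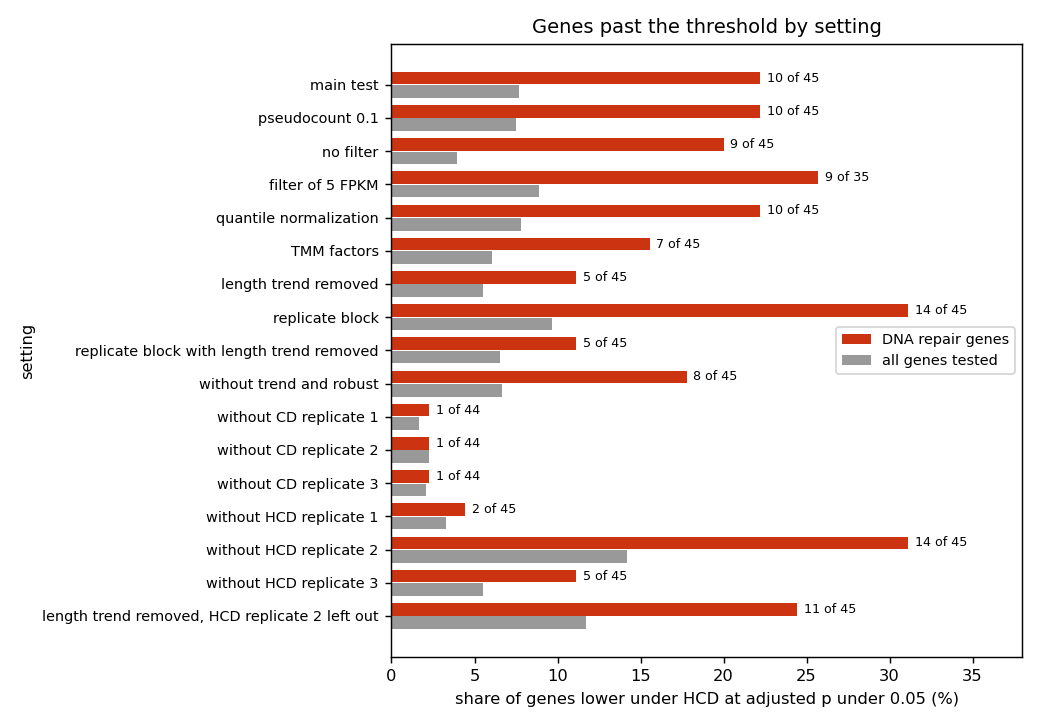
Bars give the share of genes lower under HCD at an adjusted p under 0.05, in percent, for the repair genes (red, with counts) and for all genes tested (grey), under the main test and 16 alternatives. The red bar is 22.2% against 7.66% in the main test and shrinks to 1 of 44 when any one of the CD libraries is left out, where the grey bar is 1.67% to 2.27%. The red bar of the main test counts Lig4, which met the filter through the CD libraries alone. The grey bars of the other alternatives are 7.51% with a pseudocount of 0.1, 3.92% with no filter, 8.87% with a filter of 5 FPKM, 7.77% with quantile normalization, 6.08% with TMM factors, 9.67% with the replicate block, 6.56% with the block and the length trend removed, and 6.68% without trend and robust.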

How the data were processed

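RNA was taken with a micro column kit and made into stranded mRNA libraries, per the labels' protocols. StringTie, HISAT2 and fastp, with GRCm38 and mm10, stand in the submitters' processing notes; the sources used here give no versions and no annotation. The authors deposited 1 value per gene, read here as FPKM because of StringTie and of how the values behave, since a sample name is all that the file headers hold. Each table held 21878 rows, and 27 with a date for a symbol (0.127% of FPKM) were left out. Depth was estimated from low values that are whole multiples of 1 read (77.4% of 2108 low genes, tolerance 0.02), with lengths from GENCODE vM21.

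The test was limma 3.58.1 (R 4.3.3, trend and robust) on log2(FPKM + 1), for genes that reached 1 FPKM in 3 or more libraries. It was two-sided, with Benjamini-Hochberg adjustment over all genes and a threshold of 0.05. TMM factors were computed from the FPKM values. On 5 simulated sets of 10324 to 10344 genes the test recovered 57.6% of genes changed 1.25-fold and 94% of those changed 1.5-fold. Of its calls there 6.38% were false. The simulation gave every gene the same dispersion (0.00326), with no length trend and no library set apart as HCD replicate 2 was. Its rates therefore need not hold for these libraries.

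Same-numbered libraries of the 2 diets deviated together (correlations 0.103, 0.292 and 0.166), which is the source of the replicate block. CD replicate 1 with HCD replicate 3 gave 0.098, and the labels do not say that numbers pair. The members and lists were chosen with earlier results of these data known. Named genes are all members and the 7 gate and stem cell markers. From each other list, genes were taken from the 4 past the threshold with the smallest p. Any other was chosen after its values were seen, Cd3e among them. Alternatives were another pseudocount, other filters, quantile and TMM scaling, the length trend removed, the block, limma without trend and robust, and each library left out.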

Additional observations from a re-analysis of the deposited data

How the results depend on the processing

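The 10 lower repair genes stayed lower in direction in every one of the 16 alternatives in which they were tested. Much of this was fixed in advance. The groups of these genes do not overlap, so leaving out 1 library could not turn a sign. The filters, the replicate block and limma without trend and robust leave the difference itself unchanged. Lig4 was not tested with the filter of 5 FPKM or once a CD library was left out. Atm and Chek1 passed in each of the 9 that keep every library, and Lig4 in the 8 in which it was tested, though it met the filter of 1 FPKM through the CD libraries alone. The number of repair genes past the threshold was 10 with a pseudocount of 0.1, 10 with quantile normalization (without Exo1 and Xrcc5, with Mdc1 and Prkdc), 9 with no filter or with one of 5 FPKM, 8 without trend and robust and 7 with TMM factors. It was 14 with the replicate block, which ended the call of Xrcc5 and added Atr, Bard1, Mdc1, Prkdc and Trp53bp1. It fell to 5 with the length trend removed and to 5 with the replicate block and the length trend removed together. Leaving out 1 library gave 1 to 14 repair genes, and 435 to 2672 genes in all against 1488. With the length trend removed and HCD replicate 2 left out, 2508 genes passed and the median of the repair genes was -0.105. With the length trend removed 57.3% of all calls were higher, against 45% in the main test.

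Signs turned only in repair genes that did not pass. In the 10 that passed, leaving out 1 library could not turn a sign, since their groups do not overlap. Rad51d was at 0.0225 with quantile normalization, 0.017 with TMM factors, 0.0285 with the length trend removed (with or without the replicate block), 0.0341 without CD replicate 3, 0.0421 without HCD replicate 2 and 0.0619 with the length trend removed as well. Fance was at -0.0017 with the length trend removed (with or without the replicate block), -0.0283 without CD replicate 2, -0.0254 without HCD replicate 2 and -0.0305 with the length trend removed as well. Fancc was at -0.0025 without CD replicate 1 and -0.0356 without HCD replicate 1. Msh3 was at -0.0251 without CD replicate 2, -0.0526 without HCD replicate 1 and -0.0207 without HCD replicate 3. Xrcc3 was at 0.0001 without HCD replicate 2, and with the length trend removed as well it was at 0.0019 and Fanca at 0.0066. With 1 library left out the differences ranged from -0.036 to 0.0421 for Rad51d, -0.2232 to 0.0001 for Xrcc3, -0.0356 to 0.1445 for Fancc, -0.0283 to 0.036 for Fance and -0.0526 to 0.1131 for Msh3. The cause was not tested.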

Other observations

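Genes on a list of p53 itself and genes taken as its targets went both ways. Whether p53 acted on any of them here was not tested. Of 20 tested of 22 listed, 4 were higher and 2 lower under HCD (limma, adjusted p under 0.05; 6.28% of all genes tested were higher and 7.66% lower). Among the higher genes, the antiproliferative gene Btg2 went from 40.2 ± 1.09 to 111 ± 15.7 FPKM (SD, n = 3), the cell death gene Pmaip1 from 1.21 ± 0.12 to 3.32 ± 0.89 and the stress gene Gadd45g from 2.59 ± 0.25 to 4.39 ± 0.99. Among the lower ones, the nuclease gene Aen fell from 15.5 ± 0.62 to 11.7 ± 0.26 FPKM. Within HCD, Btg2, Pmaip1 and Gadd45g were lowest in replicate 2. The following were chosen after their values were seen: Trp53, the p53 gene itself, had 91.9 ± 3.76 FPKM under CD and 93.2 ± 10.8 under HCD. The p53 target Cdkn1a, which encodes the cell cycle inhibitor p21, had 29.1 ± 2.25 and 34.5 ± 8.62 FPKM and did not pass (limma adjusted p = 0.403). Mdm2, the ligase that degrades p53, had 11.4 ± 0.94 and 11.5 ± 1.54 FPKM. Ccng1, another listed target, had 26.0 ± 0.53 under CD and 23.7 ± 0.96 under HCD, without overlap, and did not pass (limma adjusted p = 0.125).

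The repair genes spread more under HCD than under CD. Their median coefficient of variation was 5.33% in CD and 10.6% in HCD, beside medians of 4.92% and 7.78% over all genes tested. Of the 45, 38 varied more in HCD, a share that was not computed over all genes tested. HCD replicate 2 held the lowest of the 6 values for 28 of the 45, beside 33.6% of all genes tested, and the spread without it was not computed.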
